A study of Sus scrofa with 207 samples.

Results

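Among pigs with a large fat area, muscle from animals of high drip loss was compared with muscle from animals of low drip loss. The animals were chosen from their labels alone: a fat area of at least 17.0 cm2, with drip loss at or above 7.0% for the high group and at or below 3.5% for the low group. This gave 12 high and 12 low animals, 24 of the 207 pigs in the series. The series holds 1 Affymetrix Porcine Genome Array per pig, all from crossbred commercial pigs of the herd labelled Pix(DLxDE), whose muscle was sampled when they were slaughtered at about 110 kg. Fat area was measured on M. longissimus dorsi at the 13th/14th rib. Drip loss is the share of its weight that a piece of the same muscle, collected 24 h after death, lost while hanging for 48 h at 4 °C. No animal is labelled with a treatment or genotype, and the labels used here give no sex, sire, age, slaughter day or array batch, so these could not be balanced between the groups.

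Drip loss is the fluid that meat gives off without outside force, and it rises when muscle acidifies fast after death and its proteins and membranes hold water less well. Stress before slaughter, glycogen stores, calcium release through the ryanodine receptor and the activity of AMP-activated kinase are known influences in pigs. Immediate early genes are transcribed within minutes of a stimulus and need no new protein first, so their level in muscle taken at slaughter reflects signalling shortly before the tissue was taken. They include transcription factors of the FOS, JUN and EGR families, the RNA-destabilising protein ZFP36, and secreted products such as CYR61.

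Drip loss in the 12 high animals ran from 7.39% to 10.01% with a median of 7.93%, and in the 12 low animals from 1.45% to 3.22% with a median of 2.59%. The 28 fat animals between the limits ran from 3.60% to 6.91%. Fat area was 19.4 cm2 ± 1.99 (SD, n = 12) in the high and 19.7 cm2 ± 2.74 (SD, n = 12) in the low group (permutation test, two-sided, p = 0.758, adjusted p over 8 measures 0.866). The leaner animals set against them had a fat area below 17.0 cm2, the largest being 16.9 cm2, and the same drip loss limits gave 40 high and 37 low among them. No animal is shared between the fat and the leaner comparison.

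The arrays carried the signature of skeletal muscle. The 11 measured fibre-defining markers, among them the slow myosin MYH7 and the fast troponin TNNT3, averaged 13.7 to 13.8 on the log2 scale in each of the 24 animals, near the top of the signal range, whose floor is 4.00. None of the other measures compared between the groups (array median, correlation with other arrays, spike-in controls, difference between 3' and 5' control probes, the Y-linked EIF1AY, adipocyte marker mean, title number) passed the adjusted permutation test, the smallest adjusted p being 0.395. Both arrays that correlated poorly with the rest came from the low group, the array without spike-in signal came from the high group, and 3 low but 0 high animals belonged to the numbers above 1000. EIF1AY was at background level in 3 of 12 animals in each group. In such bulk samples fewer cells of a type and less RNA per cell cannot be told apart.

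No probe set passed the test across the array. With limma and Benjamini-Hochberg adjustment over 23935 probe sets, 0 (0%) had an adjusted p under 0.05, the smallest being 0.103. An unadjusted p under 0.05 was reached by 799 probe sets with the higher mean in the high group (3.34%) and by 567 with the lower mean (2.37%), 1366 in all where 1196.75 would be reached under no difference. Counted as genes with 1 probe set each, 296 of 6765 (4.38%) were higher and 114 (1.69%) lower at that level. The median half-width of the unadjusted 95% interval of a difference was 0.19 log2 units. Differences well under that size could not be resolved with 12 animals a group. Larger ones also failed the adjusted test, so the lack of calls does not exclude them. The p-values measure the spread between these animals. The values that follow describe the 24 animals, and none of the genes named is called changed in the fat animals.

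Several genes with lower values in the high group are transcripts of acute signalling. CXCL2, a chemokine that draws neutrophils, had log2 signals of 6.82, 7.48 and 8.62 (lowest, median, highest) in the low group and of 6.25, 6.79 and 7.31 in the high group. All 12 high animals lay below the low group's median and 8 low animals lay above the highest high animal, although the ranges overlapped. The difference was -0.85 ± 0.19 (SE; 95% interval -1.24 to -0.46), a level difference of -44.6%, with unadjusted p = 0.000117 and limma adjusted p = 0.782. In the 28 fat animals of middling drip loss CXCL2 spanned 6.16 to 9.25 with a median of 7.61, close to that of the low group.

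DUSP1, the phosphatase that switches off stress-activated MAP kinases, read 10.96, 11.89 and 12.67 in the low and 10.12, 10.91 and 12.07 in the high group. 11 of 12 high animals lay below the low median and 7 below the lowest low animal. The difference was -0.85 ± 0.21 (SE; interval -1.27 to -0.43; limma adjusted p = 0.782). DUSP6, the phosphatase of the ERK branch, read 6.32, 7.14 and 7.89 in the low and 6.46, 6.70 and 7.0 in the high group, a difference of -0.32 ± 0.13 (SE), and all 12 high animals lay below the low median. A dimmer DUSP6 probe set gave -0.09. The remaining measured member of the list of 14 MAP kinase phosphatases and feedback inhibitors, DUSP7, differed by -0.07 ± 0.11 (SE).

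**Figure D1:**
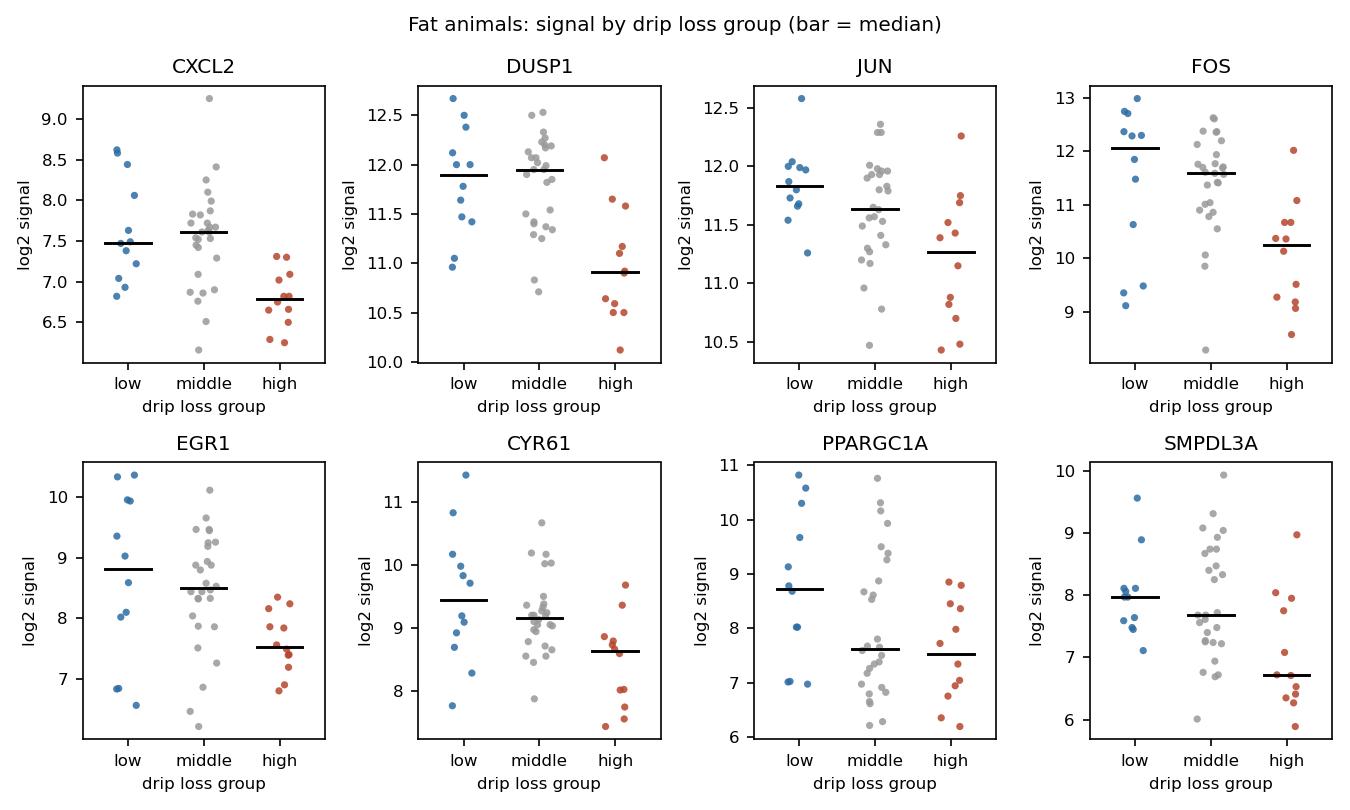
Log2 signal (vertical axis) of 8 genes in each fat animal of the low (12), middle (28) and high (12) drip loss groups (horizontal axis), with bars at the group medians. CXCL2 medians are 7.48, 7.61 and 6.79, and in EGR1 3 low animals sit at 6.56 to 6.84, below or beside the lowest high animals, while 7 lie above every high animal.

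Of 29 immediate early genes listed, 19 were measured. 18 of them had the lower mean in the high group, beside 41.7% of all genes. 6 of the 19 reached an unadjusted p under 0.05, all with the lower mean in the high group, beside 1.69% of all genes, and 0 passed the adjusted test. The median difference over the list was -0.34, beside 0.02 over all 6765 genes. JUN, which pairs with FOS in the AP-1 transcription factor, read 11.26, 11.84 and 12.58 in the low and 10.43, 11.27 and 12.26 in the high group. 6 high animals lay below every low animal, and the difference was -0.64 ± 0.17 (SE; unadjusted p = 0.000882).

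FOS gave the largest difference of the list. It read 9.11, 12.07 and 12.99 in the low group and 8.57, 10.25 and 12.02 in the high group, so that all 12 high animals lay below the low median but 2 below the lowest low animal. The difference was -1.37 ± 0.45 (SE; interval -2.28 to -0.46), a level difference of -61.3% (unadjusted p = 0.00469, limma adjusted p = 0.847). EGR1, a zinc-finger factor induced by growth factors and stretch, read 6.56, 8.81 and 10.37 in the low and 6.80, 7.53 and 8.35 in the high group, with a difference of -1.06 ± 0.38 (SE). Its other 2 probe sets gave -0.86 and -1.01. CYR61, a matrix-bound signalling protein, read 7.76, 9.45 and 11.43 against 7.43, 8.63 and 9.68, a difference of -1.04 ± 0.33 (SE).

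ZFP36 differed by -0.83 ± 0.39 (SE) and IER3, a stress-induced survival factor, by -0.39 ± 0.19 (SE). For NR4A3, an orphan nuclear receptor induced by exercise, the difference was -0.91 ± 0.45 (SE; unadjusted p = 0.0561), for KLF4 -0.45 ± 0.27 (SE) and for MYC, a growth-promoting transcription factor, -0.34 ± 0.32 (SE). ATF3, which responds to cellular stress, differed by -0.05 ± 0.36 (SE), and FOSL1, the member with the higher mean in the high group, by 0.03 ± 0.09 (SE). NFIL3, a clock-linked repressor, differed by -0.55 ± 0.30 (SE) and the secreted THBS1 by -0.49 ± 0.39 (SE), both within intervals that include 0. Dimmer probe sets of THBS1 gave 0.175, -0.49, -0.26 and -0.095. Without the low animal of high interferon signal described below MYC differed by -0.16 and THBS1 by -0.31. The differences thus ran from large in FOS, EGR1 and CYR61 to near 0 in ATF3 and MCL1.

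The low group was the more mixed one for several of these genes. The SD of EGR1 was 1.4 in the low and 0.51 in the high animals, and that of FOS was 1.43 and 0.99. It was not so for JUN, at 0.32 and 0.56, or for DUSP1, at 0.55 and 0.57. The same 3 low animals, with drip losses of 3.13%, 2.81% and 2.38%, had the lowest low-group values of FOS, EGR1, CYR61, DUSP1 and PPARGC1A, a grouping seen after the values and not tested. In FOS they lay at or below 9.48, whereas the other 9 low animals lay at or above 10.63 with a median of 12.30. For CXCL2 and JUN, 2 of these 3 were among the lowest 3. Without the 2 poorly correlated low-group arrays the list stood at 16 of 19 lower, 5 of them with an unadjusted p under 0.05, and a median of -0.28. Without the array lacking spike-in signal 17 were lower and 4 reached that level, and the same counts held, with a median of -0.26, without the low animal of high interferon signal described below.

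PPARGC1A, the coactivator that drives mitochondrial and oxidative genes and is itself induced by contraction and cold, read 6.97, 8.73 and 10.82 in the low and 6.19, 7.53 and 8.85 in the high group. The difference was -1.19 ± 0.43 (SE; interval -2.07 to -0.31; unadjusted p = 0.00989), and 10 high animals lay below the low median. The middling animals had a median of 7.62, close to the high group. PDK4, the kinase that shuts off pyruvate oxidation in fasting, read 10.51, 12.24 and 12.92 against 9.73, 11.66 and 12.34, with differences of -0.63 ± 0.28 (SE) and, on its second probe set, -0.82 ± 0.30 (SE). 11 of 12 high animals lay below the low median of PDK4. ADM, the hypoxia-inducible vasodilator adrenomedullin, differed by -0.42 ± 0.16 (SE), with 11 of 12 high animals below the low median. It was the 1 member of 13 hypoxia genes with an unadjusted p under 0.05, which 1.69% of genes reached as lower. In the leaner animals PPARGC1A differed by -0.65 (limma unadjusted p = 0.0159) and ADM by -0.37 (limma unadjusted p = 0.000116). PDK4 differed there by -0.11 (limma unadjusted p = 0.512) and, on its second probe set, by -0.05.

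Beyond these lists, the 12 genes with the strongest lower and the 12 with the strongest higher values, relative to their error and among genes of above-median signal, were taken. SMPDL3A, a secreted phosphodiesterase, read 7.11, 7.97 and 9.56 in the low and 5.89, 6.71 and 8.97 in the high group. 8 high animals lay below every low animal, and the difference was -0.94 ± 0.29 (SE). SAMD4A, an RNA-binding repressor of translation, differed by -0.41 ± 0.12 (SE), but by -0.20 on its brighter probe set. INPP5F, FAM8A1, ACTR3B, PSME4, TRPV6 and PARP3 differed by -0.32 to -0.26. Brighter probe sets of FAM8A1 gave -0.13 and -0.19. INPP5F is an inositol phosphatase, ACTR3B an actin-nucleating subunit, PSME4 a proteasome activator and TRPV6 a calcium channel. For INPP5F and ACTR3B all 12 high animals lay below the low median.

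Of the 12 with higher values, the strongest was VAMP8, a vesicle fusion protein, at 8.07, 8.37 and 8.81 in the low and 8.47, 8.67 and 9.07 in the high group. All 12 high animals lay above the low median, and the difference was 0.34 ± 0.08 (SE; interval 0.17 to 0.51; limma adjusted p = 0.782). EEF1A1, the translation elongation factor, differed by 0.23 ± 0.06 (SE) and SRI, the calcium-binding protein sorcin that modulates ryanodine receptors, by 0.32 ± 0.08 (SE), in each case with all 12 high animals above the low median. SRI read 7.80, 8.06 and 8.38 against 8.07, 8.40 and 8.81. MGST1, a membrane glutathione transferase, differed by 0.48 ± 0.13 (SE), and TKT, the transketolase of the pentose phosphate pathway, by 0.28 ± 0.08 (SE).

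ALDH1L1, a folate enzyme, differed by 0.32 ± 0.09 (SE) on one probe set and by 0.03 on a dimmer one, and APOE, a lipid carrier, by 0.28 ± 0.08 (SE) and -0.001. GLUL, glutamine synthetase, differed by 0.36 ± 0.10 (SE) on the probe set that the rule chose, but its 2 brighter probe sets gave -0.03 and -0.10, so that no direction can be given for the gene. The class I antigen gene SLA-8 differed by 0.41 ± 0.12 (SE), with 0.23 on its other probe set, and its 12 high animals all lay above the low median. Genes of this family resemble each other, so signal may be shared among them. Of 17 genes of the swine leukocyte antigens and antigen presentation 13 had the higher mean, beside 58.3% of all genes, while SLA-7 differed by -0.23 ± 0.10 (SE) with all 12 high animals below the low median. Without the low animal of high interferon signal 16 were higher. C13H21orf62, the signalling adaptor VAV1 and ORMDL3, a regulator of sphingolipid synthesis, differed by 0.26, 0.21 and 0.27. Other probe sets of VAV1 gave 0.14 and -0.04. Among the named genes with more than 1 probe set, 18 of 39 had probe sets of both signs.

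The smallest p of the comparison belonged to a probe set that the platform annotation assigns to more than 1 gene, so that no gene is named for it. It read 4.00, 4.49 and 6.68 in the low and 4.88, 6.74 and 8.04 in the high group, and 11 of the 12 low animals lay below the lowest high animal. 11 of 12 low and 2 of 12 high animals lay within 1 log2 unit of the floor of 4.00, so the low group is not shown to be above background and the size of the difference is not settled. The measured means differed by 1.93 (limma adjusted p = 0.103). It passed the adjusted test without the 2 poorly correlated arrays (2.08, adjusted p = 0.0163), with array weights (2.03, adjusted p = 0.0254), and when any of 4 animals was left out. The middling animals ran from 4.00 to 7.78, with a slope of -0.24 ± 0.21 (SE) per percent. In the leaner animals the difference was 0.19 ± 0.31 (SE). A second probe set, which has no gene in the annotation, read 9.65, 10.75 and 11.98 against 10.88, 11.94 and 12.72, a difference of 1.03 ± 0.21 (SE; limma adjusted p = 0.537). With a single low animal left out it passed (1.14, limma adjusted p = 0.0451). Its slope in the middling animals was 0.09 ± 0.09 (SE) per percent. In the leaner animals this probe set differed by 0.48 ± 0.12 (SE; limma adjusted p = 0.0671).

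**Figure D2:**
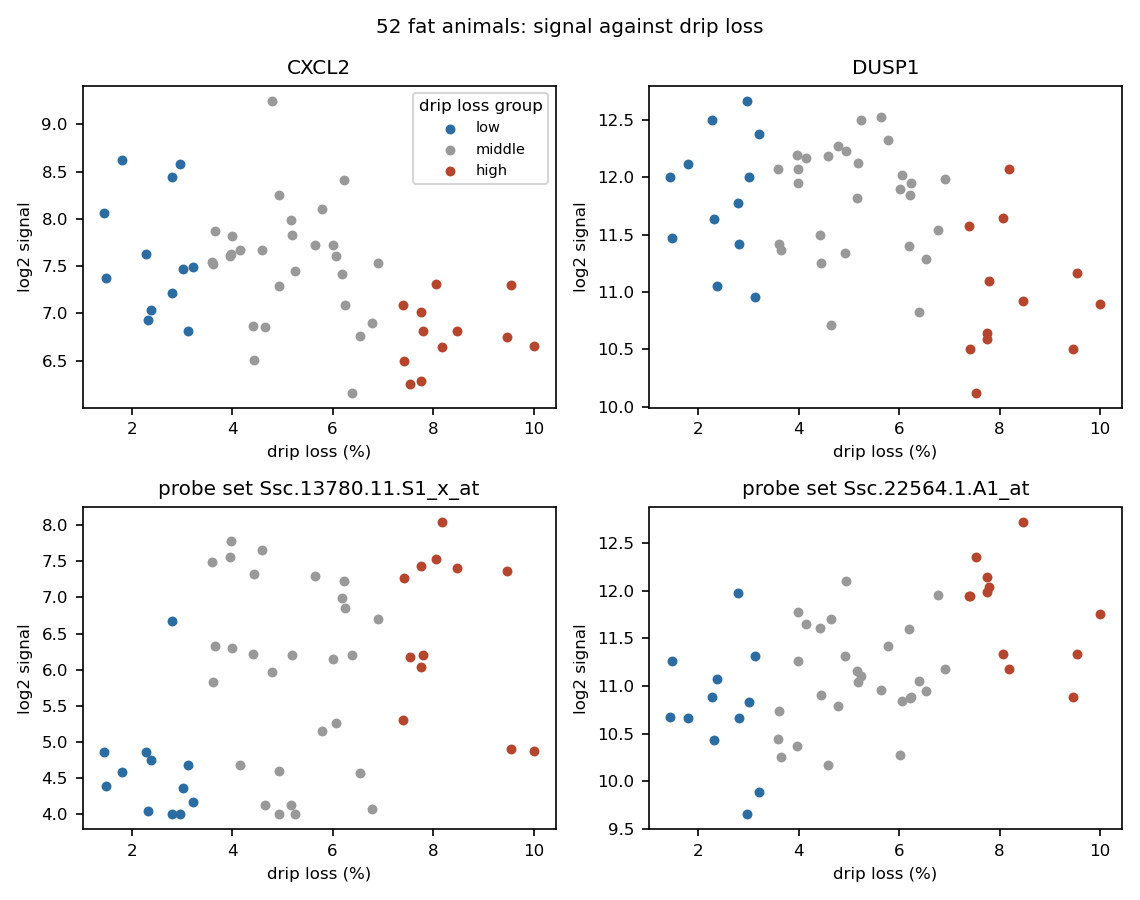
Log2 signal (vertical axis) against drip loss in percent (horizontal axis) in the 52 fat animals for CXCL2, DUSP1 and 2 probe sets without a named gene, each point 1 animal coloured by drip loss group. The multi-gene probe set in the third panel lies at 4.00 to 4.87 in 11 low animals and spreads from 4.00 to 7.78 in the middling ones.

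Some lipid synthesis genes had higher and others lower means in the high group. SCD, the desaturase that makes oleate, read 7.5, 9.0 and 10.00 in the low and 8.56, 9.75 and 11.05 in the high group. 10 of 12 high animals lay above the low median, and the difference was 0.72 ± 0.27 (SE; interval 0.18 to 1.27; unadjusted p = 0.0115, limma adjusted p = 0.847). FASN, fatty acid synthase, read 7.5, 8.81 and 9.22 against 7.85, 9.12 and 10.84, a difference of 0.48 ± 0.23 (SE). Its dimmer probe sets gave 0.125, 0.078 and -0.03. The high animal at 10.84, whose array lacked spike-in signal, also had the highest SCD value. Without it FASN differed by 0.32 (limma unadjusted p = 0.101) and SCD by 0.60. DGAT2, which completes triglycerides, differed by 0.38 ± 0.18 (SE), and by 0.25 without that animal, whereas LPIN1, a phosphatidate phosphatase also induced in fasting, differed by -0.49 ± 0.24 (SE).

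Of the 14 lipid synthesis genes measured, 10 were higher, beside 58.3% of all genes, 3 of them with an unadjusted p under 0.05, and 1 of the 4 lower ones reached that level. The background for genes is 4.38% and 1.69%. The list's median difference was 0.09. Without the array lacking spike-in signal 1 gene in each direction reached the level, and so it was with the difference between 3' and 5' control probes as covariate. Without the low animal of high interferon signal 2 higher and 0 lower genes reached it.

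Fat cell markers were less uniform. FABP4, the fatty acid binding protein of adipocytes, read 9.57, 10.60 and 10.94 in the low and 10.10, 10.88 and 11.32 in the high group, a difference of 0.40 ± 0.16 (SE; unadjusted p = 0.0156). The hormone-sensitive lipase LIPE differed by 0.31 ± 0.14 (SE), or 0.20 without the array lacking spike-in signal, and the retinol carrier RBP4 by 0.57 ± 0.26 (SE), while the lipid droplet protein PLIN2 differed by -0.34 ± 0.14 (SE). The low-group median of RBP4, 4.82, lay within 1 log2 unit of the floor of 4.00, so the size of its difference is not settled. The adipokine ADIPOQ differed by 0.16 ± 0.17 (SE), and by -0.05 when only animals numbered below 1000 were kept. Of 13 adipocyte markers measured 7 were higher and 6 lower, 3 higher and 1 lower reached an unadjusted p under 0.05, and 0 passed the adjusted limma test. Without the 2 poorly correlated arrays 0 of the higher ones reached that level. The mean of the markers ran from 6.77 to 7.26 in the low and from 6.85 to 7.48 in the high animals. With that mean as a covariate SCD differed by 0.63 (limma unadjusted p = 0.0301) and FASN by 0.37 (limma unadjusted p = 0.118).

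**Figure D3:**
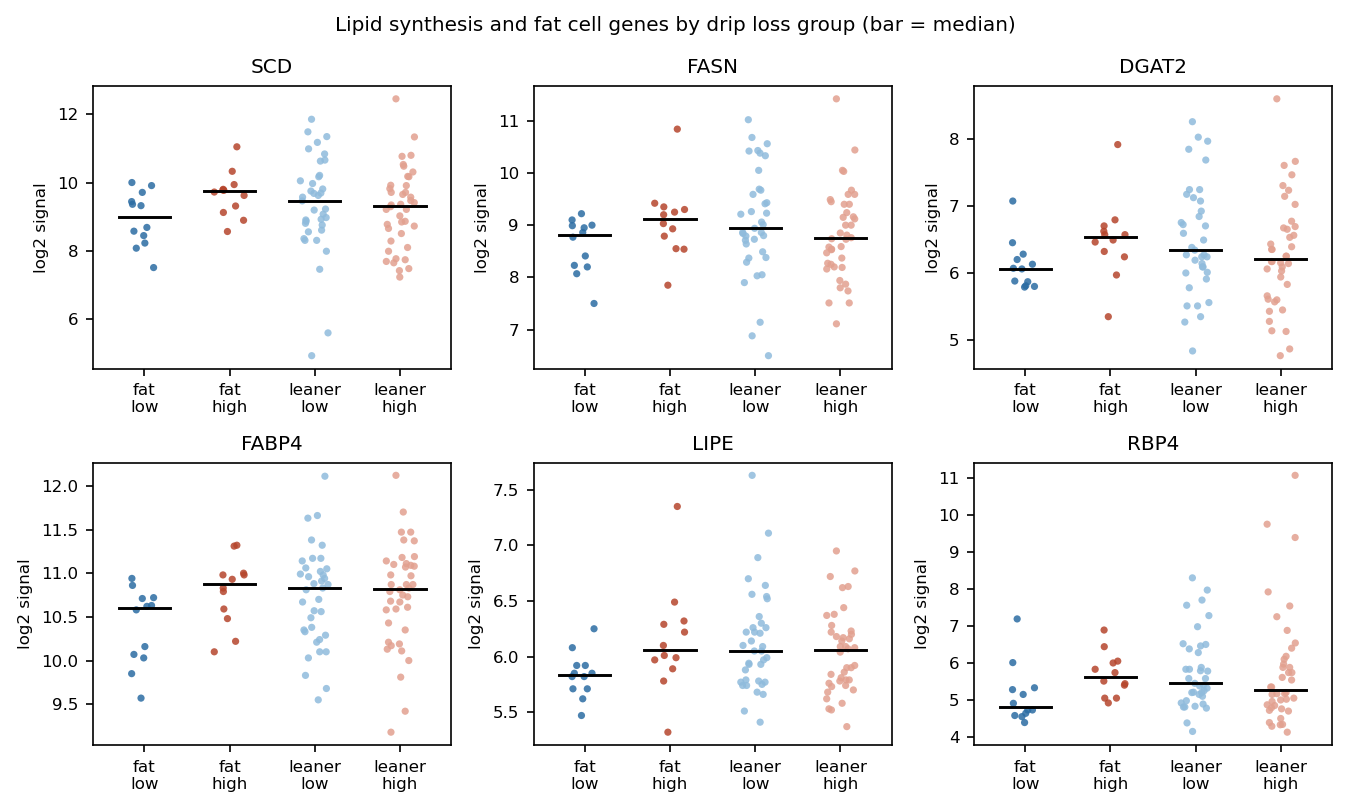
Log2 signal (vertical axis) of 6 lipid synthesis and fat cell genes in each animal of the fat low (12), fat high (12), leaner low (37) and leaner high (40) groups (horizontal axis), with bars at the medians. SCD medians are 9.0 and 9.75 in fat animals and 9.46 and 9.32 in leaner animals, and the ranges of all groups overlap.

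Markers of lymphocytes were mostly higher in the high group, at low signal. Of 14 measured, 13 had the higher mean, beside 58.3% of all genes. 4 of the 13 had an unadjusted p under 0.05, beside 4.38% of genes, and 0 passed the adjusted test. Over the alternatives, which reuse these animals, 13 of 14 stayed higher. Between 2 (without the low animal of high interferon signal) and 6 (without the 2 poorly correlated arrays) reached that level. In the middling fat animals 7 had a negative and 7 a positive slope on drip loss. The median difference in the leaner animals was 0.02, with 0 at an unadjusted p under 0.05. CD8A, the coreceptor of cytotoxic T cells, read 4.44, 5.42 and 6.04 in the low and 4.96, 5.83 and 6.27 in the high group, a difference of 0.36 ± 0.15 (SE). CD3E, of the T cell receptor complex, differed by 0.27 ± 0.12 (SE), LCK, its kinase, by 0.30 ± 0.14 (SE) and KLRK1, a receptor of cytotoxic cells, by 0.17 ± 0.08 (SE). The low-group median of CD3E, 4.92, lay within 1 log2 unit of the floor of 4.00. The list mean ran from 5.31 to 5.71 in the low and from 5.45 to 5.88 in the high animals. The chemokine CCL5 differed by 0.25 ± 0.12 (SE). Macrophage and neutrophil markers were higher in 12 of 14, beside 58.3% of all genes, with a median of 0.10 and 0 at an unadjusted p under 0.05. In the middling fat animals, however, all 14 had a negative slope on drip loss, with a median of -0.04 per percent, beside 47.6% of all genes.

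The lower list median of the interferon response genes rested largely on 1 animal. Of 17 measured, 12 had the lower mean in the high group, beside 41.7% of all genes. RSAD2, an antiviral enzyme, differed by -0.78 ± 0.34 (SE). A single low-group animal had a list mean of 8.61, the next highest of the 24 being 6.99, with MX1 at 11.37 where no other low animal exceeded 7.22. The same animal had the VPS52 value at the floor described below. Its drip loss, 1.45%, was the lowest of the 24, so leaving it out also removes the low group's extreme. Without this animal the list median went from -0.11 to -0.02 and MX1 from -0.42 to -0.05, while 10 of 17 genes had the lower mean. RSAD2 remained lower, at -0.45 ± 0.19 (SE; limma unadjusted p = 0.0273). MX2 differed by 0.19 ± 0.08 (SE), its second probe set giving -0.22.

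On their brightest probe sets, genes long tied to pork water holding differed little between the groups. RYR1, the calcium release channel, read 12.42, 12.75 and 13.04 in the low and 12.26, 12.76 and 12.94 in the high group, a difference of -0.05 ± 0.08 (SE; interval -0.21 to 0.11). PRKAG3, the muscle subunit of AMP-activated kinase, differed by 0.14 ± 0.10 (SE; interval -0.07 to 0.35) and CAST, the inhibitor of calpains, by 0.10 ± 0.07 (SE; interval -0.05 to 0.24). PYGM, glycogen phosphorylase, differed by 0.01 ± 0.05 (SE) and MYH7 by -0.02 ± 0.05 (SE), and CPT1A, a carnitine shuttle enzyme, by -0.01 ± 0.16 (SE). Other probe sets of PYGM gave -0.006, -0.21 and -0.28, and those of CAST -0.06, -0.11, -0.002 and -0.185. In the leaner animals RYR1 differed by -0.11 (limma unadjusted p = 0.0138) and PRKAG3 by 0.12 (limma unadjusted p = 0.0350). CAST and PYGM differed there by 0.04 and 0.01. These probe sets do not report variants in the genes, and PYGM and MYH7 sit near the top of the signal range. PRKAA1, a catalytic subunit of the same kinase, differed by 0.19 ± 0.09 (SE), with all 12 high animals above the low median, and PHKG1, a subunit of phosphorylase kinase, by 0.26 ± 0.12 (SE). Both had low signal, with means over the 24 animals of 5.24 and 5.13, and a dimmer PRKAA1 probe set gave 0.05. PRKAA1 and PHKG1 were the 2 of 15 glycogen and kinase genes with an unadjusted p under 0.05, beside 4.38% of genes that reached it as higher. With title numbers below 1000 0 were higher and 1 lower at that level, and without the poorly correlated arrays 1 was higher. The 9 slow and 9 fast contractile genes measured had medians of -0.03 and 0.004, and 0 of either list reached an unadjusted p under 0.05.

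Several lists held members with an unadjusted p under 0.05 and medians near 0. Among 15 glycolytic genes ALDOC, an aldolase, differed by 0.40 ± 0.16 (SE). CTSH, a lysosomal protease, differed by 0.34 ± 0.11 (SE), the 1 of 16 proteases at that level, a share near the 4.38% of all genes. The fatty acid oxidation genes ECI1 and ACAA1 differed by 0.23 ± 0.08 (SE) and 0.28 ± 0.11 (SE), opposite in sign to PPARGC1A. HNRNPL, a splicing factor, differed by -0.54 ± 0.21 (SE), and 22 of 30 splicing factors had the lower mean, beside 41.7% of all genes. Of 24 heat shock genes 20 were lower, beside the same 41.7%, with a median of -0.07 and HSF2 at -0.35 ± 0.17 (SE). Without the low animal of high interferon signal 15 of them were lower and 0 reached an unadjusted p under 0.05. 50 of 58 cytosolic ribosomal proteins were higher, beside 58.3% of all genes, by a median of 0.03 that is near the 0.02 of all genes. Without the 2 poorly correlated arrays 27 were higher and 31 lower, and with title numbers below 1000 29 were higher and 29 lower. BHLHE40, a clock repressor, gave 0.32 ± 0.10 (SE) and -0.68 ± 0.26 (SE) on its 2 probe sets, so that its direction is unsettled.

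**Figure D4:**
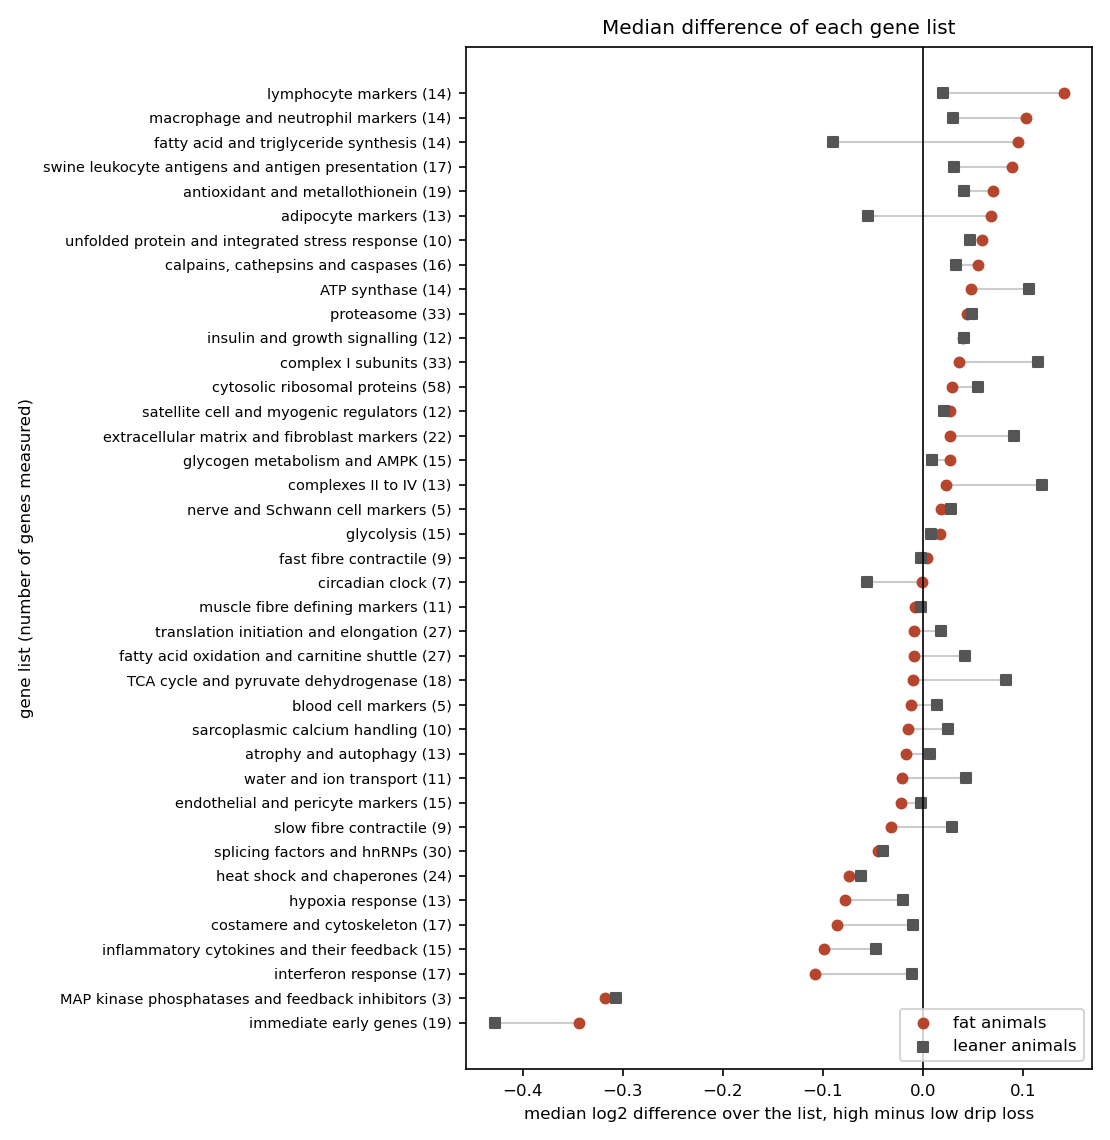
Median log2 difference, high minus low drip loss (horizontal axis), of each of 39 gene lists (vertical axis, number of measured genes in brackets) in fat animals (circles) and in leaner animals (squares). Immediate early genes lie lowest in both, at -0.34 and -0.43, while the lipid synthesis list lies at 0.09 in fat and -0.09 in leaner animals.

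The leaner animals, none of them shared with the fat ones, gave a second view of the same contrast. EIF1AY differed there by 0.52 (limma unadjusted p = 0.176), against -0.006 in the fat animals. It was at background level in a larger share of the leaner than of the fat animals. Sex is not labelled, so sex and fat area cannot be told apart where the comparisons are set side by side. There, 25 of 23935 probe sets (0.104%) passed the adjusted limma test, 20 of them lower in the high group, and 11.9% reached an unadjusted p under 0.05. Of those 25, 22 had the same sign in the fat animals and 12 reached an unadjusted p under 0.05 there with that sign. Over all probe sets 57.4% had the same sign in both, and 3.34% and 2.37% reached that level as higher and as lower in the fat animals. Taken in the leaner direction, the median size was 0.36 in the fat and 0.51 in the leaner animals. CXCL2 fell by 0.84 on the log2 scale in the leaner animals (SE 0.12, limma adjusted p = 5.58e-05) and CYR61 by 0.97. DUSP1, FOS, EGR1, MYC, IER2 and PPP1R15A also fell there. The probe set of RPL30 passed too, but it lay within 1 log2 unit of the floor in 39 of 40 high and 30 of 37 low leaner animals and is not shown to be above background. JUN, among the strongest in the fat animals, differed by -0.23 ± 0.12 (SE) in the leaner ones and did not pass.

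UNC93B1, a trafficking protein of Toll-like receptors, rose by 0.26 in the leaner animals and differed by 0.28 ± 0.08 (SE) in the fat ones. ATP5I, a subunit of ATP synthase that rose by 0.28 there, differed by 0.07 ± 0.12 (SE) in the fat animals, and LOC100512926, which rose by 0.35, by -0.08 ± 0.13 (SE). Complex I subunits had a median of 0.11 in the leaner animals, with 20 of 33 at an unadjusted p under 0.05, and of 0.04 with 0 of 33 in the fat animals. In the leaner animals 1038 of all 6765 genes reached that level. The fits hold 77 and 24 animals, and 0 of the 33 reached an unadjusted p under 0.05 in the limma test of the difference between the contrasts. Of the 12 genes with the strongest lower values in fat animals, 9 had the same sign in the leaner ones and 3 passed there. Among the 12 with the strongest higher values 11 had the same sign, 3 with an unadjusted p under 0.05 (VAMP8, EEF1A1 and SRI). Over all genes 62.2% had the same sign in both comparisons and 1038 of 6765 reached that level in the leaner animals.

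**Figure D5:**
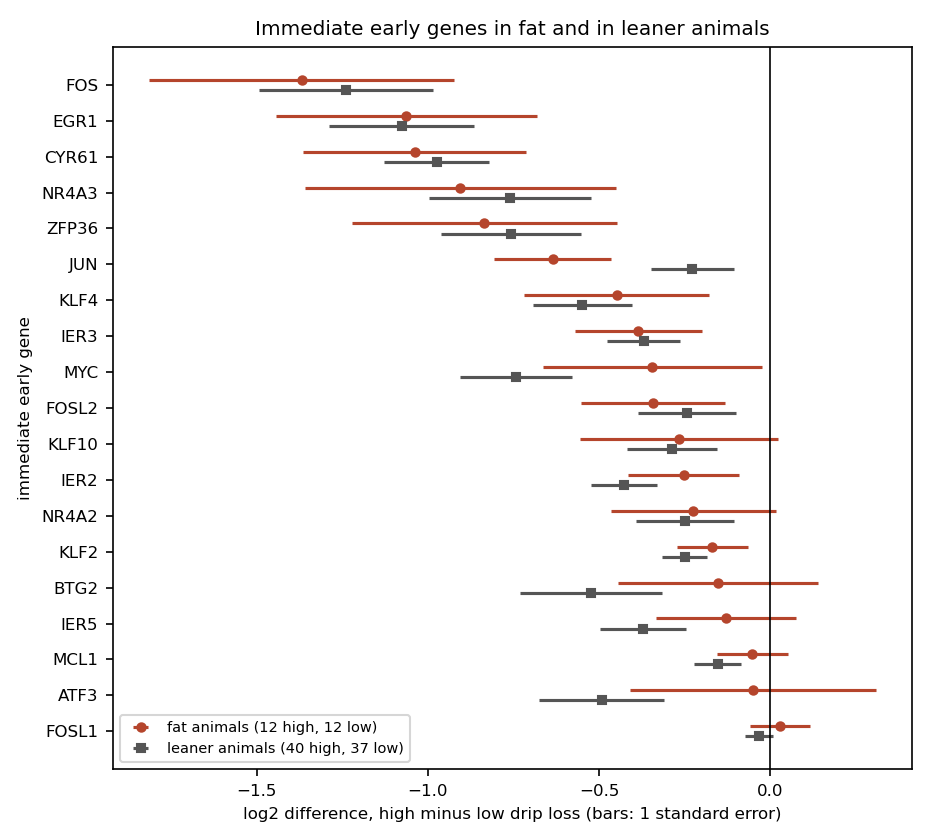
Log2 difference, high minus low drip loss (horizontal axis), of the 19 measured immediate early genes (vertical axis) in fat animals (circles) and leaner animals (squares), with bars of 1 standard error. FOS lies at -1.37 and -1.24, EGR1 at -1.06 and -1.08, and the bars of the fat animals are the wider ones.

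The contrasts of the fat and the leaner animals were then tested against each other. No probe set passed that test (0 of 23935, smallest limma adjusted p 0.999), and 960 (4.01%) reached an unadjusted p under 0.05, fewer than the 1196.75 reached under no difference. For FOS the contrasts differed by -0.13 ± 0.53 (SE), for EGR1 by 0.01 ± 0.45 (SE) and for CXCL2 by -0.01 ± 0.25 (SE). For JUN the difference was -0.41 ± 0.24 (SE; unadjusted p = 0.0919). SCD differed by -0.11 ± 0.29 (SE) in the leaner animals and FASN by -0.23 ± 0.21 (SE), opposite in sign to the fat ones, but the contrasts differed by 0.83 ± 0.55 (SE; unadjusted p = 0.130) and 0.71 ± 0.40 (SE; unadjusted p = 0.0844). LIPE and CD3E reached an unadjusted p under 0.05 in that test, at 0.41 ± 0.19 (SE) and 0.32 ± 0.15 (SE). No gene can therefore be called particular to fat animals.

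The genes with the strongest difference between the contrasts, by the same rule, were NF1, GLUL, VPS52, KCNQ1 and RCN1 with the more positive contrast in fat animals. NF1, a Ras inhibitor, differed by 0.20 ± 0.09 (SE) in the fat and -0.12 ± 0.05 (SE) in the leaner animals. VPS52, a vesicle tethering protein, rested on 1 low animal at the floor of 4.00, the others running from 7.23 to 8.83. Without that animal the fat difference went from 0.81 to 0.45, and its brighter probe set gave 0.09. With the more negative contrast in fat animals were HSD17B12, ACTR3B, PPP2R5C, ATP1B1 and HNRNPA2B1. ATP1B1, the beta subunit of the sodium pump, differed by -0.22 ± 0.08 (SE) in the fat and 0.06 ± 0.05 (SE) in the leaner animals. HSD17B12, a fatty acid elongation enzyme, differed by -0.17 ± 0.12 (SE) and 0.25 ± 0.07 (SE).

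Drip loss was also taken as a continuous measure. Over all 52 fat animals 0 probe sets passed the limma test of the slope (smallest adjusted p 0.167), and 1602 (6.69%) reached an unadjusted p under 0.05. CXCL2 had a slope of -0.14 ± 0.04 (SE) log2 units per percent of drip loss, DUSP1 of -0.13 ± 0.03 (SE), JUN of -0.11 ± 0.03 (SE) and FOS of -0.21 ± 0.07 (SE). These slopes include the 24 animals above. In the 28 middling animals, which the group comparison did not use, 0 probe sets passed (smallest adjusted p 0.998) and 1091 (4.56%) reached an unadjusted p under 0.05. CXCL2 had a slope there of -0.11 ± 0.11 (SE), DUSP1 of -0.03 ± 0.08 (SE), FOS of -0.15 ± 0.16 (SE) and EGR1 of -0.28 ± 0.16 (SE). 15 of 19 immediate early genes had a negative slope, beside 47.6% of all genes, and DUSP6 had -0.15 ± 0.06 (SE; unadjusted p = 0.0106). SCD and FASN had slopes of -0.16 ± 0.14 (SE) and -0.17 ± 0.11 (SE), opposite in sign to the difference between the extreme groups. Of the 24 strongest genes 12 kept their sign in the middling animals, 0 with an unadjusted p under 0.05.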

How the data were processed

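The deposited table gives log2 values per probe set, made by the authors with GCOS 1.1.1 and PLIER, per the submitters' processing notes; the genome build is not given in the sources used here. Values were used as deposited, without further normalization. Of 24123 probe sets 188 controls were left out, leaving 23935. The platform annotation gives 1 symbol for 10069 of these, several for 198 and none for 13668, and the brightest probe set stood for each of 6765 genes. Groups were set by the labelled fat area and drip loss. Differences were fitted with limma 3.58.1 (R 4.3.3; lmFit, eBayes, Benjamini-Hochberg over all probe sets), in separate fits for fat and leaner animals, with the difference of contrasts and slopes on drip loss as further fits. Group traits were compared with permutation tests of 100000 resamples (Python 3.11.15, scipy 1.17.1), and figures drawn with matplotlib 3.10.9. The fits were tested on simulated data. Named genes were the 12 with the largest moderated t in each direction among probe sets with 1 symbol and above-median mean signal, the 5 with the largest t of the difference between contrasts in each direction, the 2 members of each list with the smallest p, and a fixed list of genes. Other list members and the probe sets without a single gene were named after their values were seen. The rules, members and lists were chosen with earlier results of these data known, so a pattern in them is no independent support. Arrays have no read depth, and precision depends on how many of them there are. Alternatives dropped arrays, added covariates or weights, or moved the limits.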

Additional observations from a re-analysis of the deposited data

How the results depend on the processing

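The count of probe sets past the adjusted limma test in fat animals, 0, became 1 without the 2 poorly correlated arrays and 1 with array weights, and ran from 0 to 2 when each animal was left out in turn, 4 of 24 fits making a call. The 25 calls in leaner animals became 10 without arrays lacking spike-in signal, 13 with title numbers below 1000, 8 with blocks of title numbers as covariate, 13 with fat area and 12 with the difference between 3' and 5' control probes as covariate, 39 with drip loss limits of 3.0% and 7.5%, and 16 with a fat area limit of 18 cm2. The cause was not tested. The slope, difference and middling-slope counts remained 0 under every alternative run. Of 761 values of 51 named genes under alternatives, 752 kept their sign and side of the threshold and 9 reversed, in 4 genes whose difference was small against its error. Without the poorly correlated arrays PYGM was at -0.0050, CPT1A at 0.025 and EIF1AY at 0.097. With array weights CPT1A was at 0.012. ADIPOQ was at -0.052 with title numbers below 1000 and at -0.19 with blocks. EIF1AY was at 0.0046 with blocks, 0.0067 with fat area as covariate and 0.89 with the limit of 18 cm2. Alternatives for the gene lists were chosen after seeing the data. No paired analysis was possible because no animal number is shared between groups.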
